A study of Bos taurus with 6 samples.

Results

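The miR-191 and miR-425 cluster was described in milk extracellular vesicles (EVs) of cows. Its members were the rows of the deposited miRNA table named bta-miR-191, bta-miR-191b or bta-miR-425, with or without an arm suffix. This rule found 4 rows among 276 known bovine miRNAs and 779 rows in all: bta-miR-191, bta-miR-191b, bta-miR-425-5p and bta-miR-425-3p. The EVs came from 6 Holstein cows in mid lactation, held in environmental chambers at 20 °C and 40% humidity, with 1 small RNA library per cow. On the control diet, 3 cows received a total mixed ration (TMR), and on the replacement diet, 3 cows received a ration whose alfalfa hay was partly exchanged for whole cotton seed and soybean hull. The vesicles were precipitated with a commercial exosome isolation reagent, which does not sort them by their cell of origin. Fewer vesicles with a miRNA and less of it per vesicle could not be told apart in such samples.

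A miRNA is cut from a hairpin inside a longer primary transcript, and the hairpin yields a 5p and a 3p arm, of which usually 1 is retained by Argonaute. Bases 2 to 8 of the retained arm, the seed, pair with target mRNAs. The genes of miR-191 and miR-425 stand side by side in mammals and are regarded as sharing a primary transcript. The miR-191 of this pair is abundant in many tissues and body fluids, is known from lymphocyte and tumor biology, and is often used as a reference in quantitative PCR. In the cow assembly ARS-UCD2.0 as annotated by RefSeq, MIR191 and MIR425 were direct neighbours, with NDUFAF3 before MIR191 and DALRD3 after MIR425, and MIR191B was annotated inside the span of MIR191. The authors worked with ARS-UCD1.2, so no coordinates are given.

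The sequences of the 4 members, as deposited, show how little the neighbours have in common. They are written 5′ to 3′ with the seed in capitals.
bta-miR-191: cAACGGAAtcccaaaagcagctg
bta-miR-191b: gAACGAAAtccaagcgcagctg
bta-miR-425-5p: aTGACACGatcactcccgttga
bta-miR-425-3p: aTCGGGAAtgtcgtgtccgccc
No seed was shared by any pair of members, and none of the 4 seeds occurred at the same bases of any other row of the table. Within the first 8 bases, counted from the 5′ end of bta-miR-191, bta-miR-191b carried the substitutions C1G and G6A, the second of them inside the seed. The whole sequences of these 2 were 5 edits apart and ended in the same 7 bases. No other row lay within 3 edits of a member. The 5p and 3p arms of miR-425 could form 14 base pairs with each other when folded as a duplex. The GC content was 52.2% in bta-miR-191, 54.5% in bta-miR-191b, 50% in bta-miR-425-5p and 63.6% in bta-miR-425-3p.

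Expression was taken as the share of a miRNA in the summed counts of all known bovine miRNAs of a cow. These sums were 61156 to 176919 counts, so that 3 counts, the limit for an undetected miRNA, stood for 0.0017% to 0.00491%. PCR copies of a molecule count as separate reads here, and the limits and intervals cover counting error only. Any pair of cows that shared a diet differed beyond sampling noise (chi-square of the known counts divided by its degrees of freedom, 28.6 to 92.1). Library preparation by adapter ligation favours some sequences over others, so the levels of different miRNAs are levels in the library.

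Nearly all of the signal of the cluster came from bta-miR-191. It held 11.3%, 17.5% and 8.78% of the known counts in control cows 1, 2 and 3, and 20.9%, 15.5% and 10.7% in replacement cows 1, 2 and 3. The highest cow was on the replacement diet and the lowest on the control diet, while the other 4 cows of both diets interleaved. The mean was 14.1% ± 4.65 (SD, n = 6 cows), which was rank 2 among the known miRNAs, and the highest cow stood 2.39-fold above the lowest. Counting error was small against this spread. For the close pair of control cow 1 (95% Wilson interval 11.03% to 11.5%) and replacement cow 3 (95% Wilson interval 10.5% to 10.9%) the intervals were still apart. In the deposited RPM values, which refer to all reads of a library, bta-miR-191 ranged 6.42-fold, from 432 RPM in control cow 3 to 2771 RPM in replacement cow 1. The member rows together had 5386 to 37174 counts per cow, of which bta-miR-191 took 98.3% to 99.6%.

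The more abundant arm of the neighbouring hairpin, bta-miR-425-5p, was present in every cow at a far lower level. Control cows 1, 2 and 3 had 71, 140 and 13 counts of it, and replacement cows 1, 2 and 3 had 95, 257 and 33. Its share was 0.101%, 0.0868% and 0.0213% on the control diet and 0.0537%, 0.267% and 0.0474% on the replacement diet. Replacement cow 2 was the highest and control cow 3 the lowest, and the diets overlapped. The mean of 0.0962% ± 0.0884 (SD, n = 6) placed bta-miR-425-5p at rank 69, and the mean fell to 0.062% without replacement cow 2.

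The opposite arm, bta-miR-425-3p, had 10, 17 and 6 counts in the control cows, 39 counts in replacement cow 1 and no count in replacement cows 2 and 3. The share of the 3p arm in the counts of both arms was 12.3% in control cow 1 (exact 95% interval 6.08% to 21.5%) and 10.8% in control cow 2 (6.44% to 16.8%). It was 31.6% in control cow 3 (12.6% to 56.6%) and 29.1% in replacement cow 1 (21.6% to 37.6%). Replacement cow 2, with the most counts of the 5p arm, had 0 of 257 counts on the 3p arm, where the limit of 3 counts stood for 1.17%. Its 5p arm was 85.7-fold above that limit. In replacement cow 3, with 0 of 33, the limit was 9.09%. The arm balance thus differed between cows beyond counting error, since the interval of replacement cow 2 (0% to 1.43%) lay below those of the 4 cows with counts of the 3p arm. Replacement cows 2 and 3 were also the libraries with the fewest known miRNAs detected, 141 and 142, against 174 to 183 in the other cows. Whether the missing counts are particular to the arms of miR-425 was not tested.

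The fourth member, bta-miR-191b, was counted in 1 cow. Control cow 2 had 16 counts, 0.00992% of its known counts, and the other 5 cows had none. Relative to bta-miR-191, from whose locus it is annotated, bta-miR-191b made up 0.0567% of the counts of both in control cow 2 (exact 95% interval 0.0324% to 0.0921%). At that rate replacement cow 1 would have had 21.0 counts of bta-miR-191b beside its 37040 counts of bta-miR-191. For its count of 0, the limit of 3 counts was 0.0081% and the exact 95% interval reached 0.00996%. In the other 4 cows the same rate gave 3.05 to 8.48 counts. Whether a read could count for both sequences, or on either strand, is not given in the sources used here, so the counts of bta-miR-191b are uncertain.

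**Figure D1:**
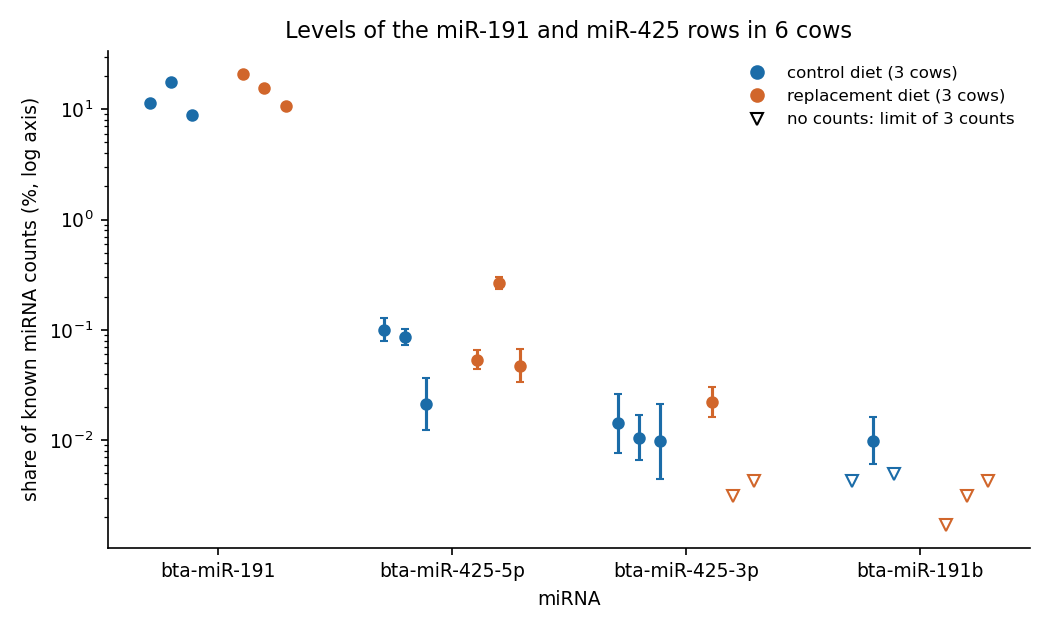
The share of each member in the counts of known miRNAs (percent, log axis) is plotted for each cow, with 95% Wilson intervals as bars. Filled points are cows with counts and open triangles mark the limit of 3 counts in cows without any. The 6 points of bta-miR-191 lie between 8.78% and 20.9%, all above the highest point of bta-miR-425-5p at 0.267%.

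The neighbours thus stood at very different levels in the milk EV libraries. The counts of bta-miR-191 exceeded those of bta-miR-425-5p by ratios of 112, 201 and 413 in control cows 1 to 3 and of 390, 58.1 and 226 in replacement cows 1 to 3. The median of this ratio was 214, and it ranged 7.10-fold between cows. The share of bta-miR-425-5p in the counts of both miRNAs was 1.69% in replacement cow 2 (exact 95% interval 1.49% to 1.91%) and 0.242% in control cow 3 (0.129% to 0.413%), so that the intervals of these cows did not meet.

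It was then asked whether the neighbours moved together across cows. For the log2 shares of bta-miR-191 and bta-miR-425-5p, Pearson's r was 0.47 (two-sided exact permutation test over 6 cows, p = 0.35) and Spearman's rho was 0.486 (exact permutation p = 0.356). Control cow 3 was lowest for both miRNAs, whereas replacement cow 1 was highest for bta-miR-191 and in the fourth place for bta-miR-425-5p. Without these 2 cows, the farthest from the median of bta-miR-191, r was 0.53, and with the mean of each diet subtracted it was 0.41. A relation between the neighbours was not detectable with 6 cows, and r was 0.0565 without control cow 3 and 0.765 without replacement cow 1. It was 0.729 (exact permutation p = 0.0931 over 6 cows) with known and predicted counts as the total, 0.708 in RPM (exact permutation p = 0.122) and 0.23 on unlogged shares (exact permutation p = 0.731). Because the counts of bta-miR-425-3p and bta-miR-191b were below 10 in some cows, no correlation was computed for them.

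**Figure D2:**
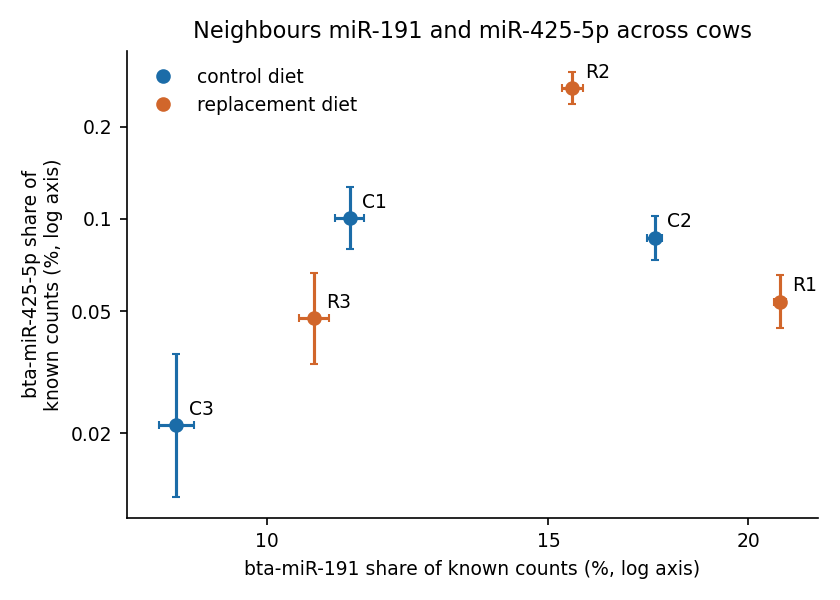
The share of bta-miR-425-5p is plotted against that of bta-miR-191 in the 6 cows (percent of known counts, log axes; C control diet, R replacement diet), with 95% Wilson intervals as bars. Replacement cow 2 stands highest at 0.267% of bta-miR-425-5p, and replacement cow 1, with the highest bta-miR-191 share of 20.9%, has 0.0537%.

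The share of bta-miR-191 had the same order over the cows as the counts of known miRNAs. This was noticed in the values, so it is given as a description with no test. Ordered by the counts of the other known miRNAs, the cows were control cow 3 (55789), replacement cow 3 (62178), control cow 1 (62551), replacement cow 2 (81311), control cow 2 (133053) and replacement cow 1 (139879), which was also the order of bta-miR-191 relative to these counts. Pearson's r on the log2 scale was 0.95 over 6 cows. The value of r was 0.97 after the diet means were subtracted. Without control cow 2 and replacement cow 1, the farthest from the median of the counts, r was 0.99. When the predicted miRNAs were added to the counts on the other axis, r was 0.34. For bta-miR-425-5p the same relation gave r of 0.26 and Spearman's rho of 0.486. Its r was 0.21 after the diet means were subtracted and 0.94 without control cow 2 and replacement cow 1.

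Other miRNAs went the other way. Among 49 known miRNAs with at least 100 counts in every cow, bta-miR-191 had the highest r with the counts of the other known miRNAs. It stood ahead of bta-miR-361 (0.945) and bta-let-7d (0.905). It was the 1 miRNA of the 49 whose share rose in the exact order of the known counts, while the share of 1 other, bta-let-7a-5p, fell in that order. The lowest r were those of bta-miR-486 (-0.96), a miRNA of red blood cells, and bta-miR-30a-5p (-0.96). Other miRNAs of red blood cells were less extreme, with -0.70 for bta-miR-451 and -0.33 for bta-miR-92a. The read totals behind the RPM values were alike, at 12130660 to 13369168 per cow, and the known miRNAs together held 4921 to 13233 RPM.

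**Figure D3:**
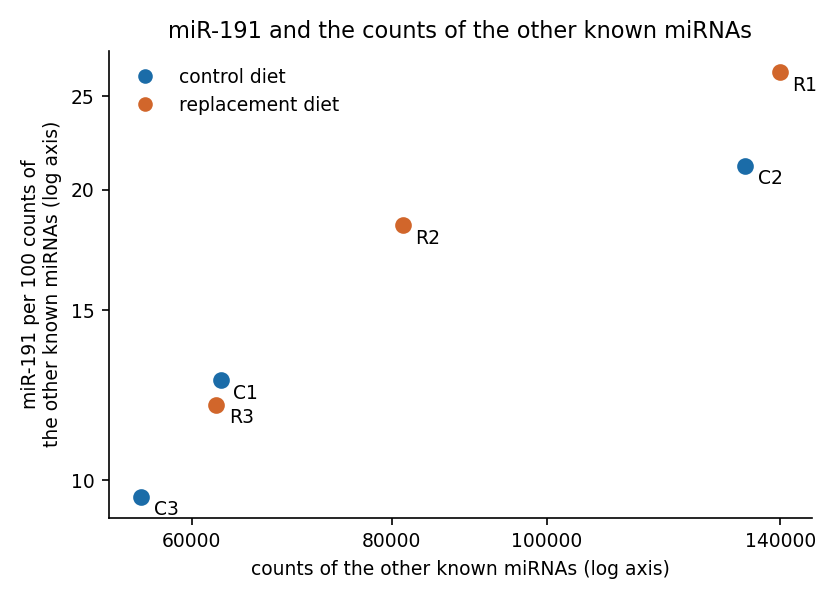
The counts of bta-miR-191 per 100 counts of the other known miRNAs are plotted against the counts of the other known miRNAs in each cow (log axes; C control diet, R replacement diet). The 6 cows rise in 1 order from control cow 3, with 55789 counts, to replacement cow 1, with 139879 counts.

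The miRNAs with the pattern most like bta-miR-191 were ranked by Pearson's r of the log2 share over the 6 cows, as a description, since all shares have the same total. The 5 most alike of 48 were bta-miR-30d (r = 0.944), bta-miR-361 (0.924), bta-let-7d (0.923), bta-miR-151-5p (0.90) and bta-miR-423-3p (0.855). The share of bta-miR-30d was 4.49% in replacement cow 1 and 1.99% in control cow 3, the same extremes as bta-miR-191. The lowest share of bta-miR-151-5p was also in control cow 3, at 3.59%, whereas its highest was in control cow 2, at 6.36%, beside 6.33% in replacement cow 1. The 3 least alike were bta-let-7a-5p (r = -0.961), bta-miR-486 (-0.921) and bta-miR-30a-5p (-0.882). Over all 48 miRNAs the median r was -0.49, with 20 above and 28 below 0.

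Sequences of some of the most and least alike are shown to compare their seeds with that of bta-miR-191, again with the seed in capitals.
bta-miR-30d: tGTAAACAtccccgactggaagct
bta-miR-361: tTATCAGAatctccaggggtac
bta-let-7d: aGAGGTAGtaggttgcatagtt
bta-let-7a-5p: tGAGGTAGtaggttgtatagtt
bta-miR-30a-5p: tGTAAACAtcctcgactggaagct
None of the 8 most and least alike miRNAs, shown or not, carried the seed of bta-miR-191. They included 2 pairs with a common seed on opposite sides. In the first pair, bta-let-7d and bta-let-7a-5p were 2 edits apart, and in the second, bta-miR-30d and bta-miR-30a-5p were 1 edit apart, so that reads could be split between close relatives.

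**Figure D4:**
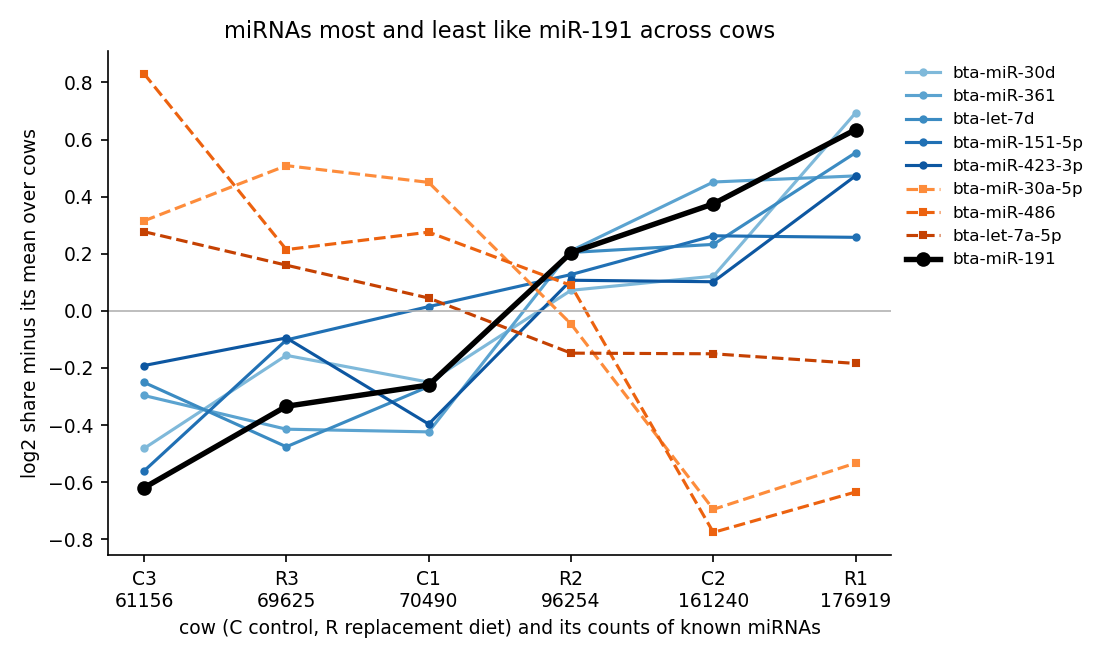
The log2 share of bta-miR-191 (black), of the 5 miRNAs most like it (solid blue) and of the 3 least like it (dashed orange) is plotted as the difference from its own mean over cows, with the cows in the order of their counts of known miRNAs (C control diet, R replacement diet). The black line rises at every step from the cow with 61156 counts to the cow with 176919 counts, and bta-let-7a-5p falls.

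In the order of mean shares, bta-miR-26a stood above bta-miR-191 with 18.1% ± 1.73 (SD, n = 6), and bta-miR-486 with 6.83% ± 2.77, bta-miR-151-5p with 5.39% ± 1.04 and bta-miR-423-5p with 4.62% ± 0.672 followed (SD, n = 6 each). The ratio of bta-miR-191 to bta-miR-26a was 0.632, 0.858 and 0.58 in control cows 1 to 3 and 1.13, 0.875 and 0.567 in replacement cows 1 to 3. Only in replacement cow 1 was bta-miR-191 the higher of the 2. These neighbours were picked by their rank in the same cows, so their differences are descriptions with no test. Against bta-miR-486, bta-miR-191 was higher in 5 of 6 cows, by 1.08 on average on the log2 scale (SD 1.06), with control cow 3 as the exception. Against bta-miR-151-5p it was higher in 6 of 6 cows, by 1.35 on the log2 scale (SD 0.24). Against bta-miR-423-5p it was also higher in 6 of 6 cows, by 1.56 on the log2 scale (SD 0.45).

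The spread of bta-miR-191 was compared with that of other miRNAs that are used as references in quantitative PCR. Its coefficient of variation (CV) over cows was 33.0%, where counting alone gives 0.98%, and 30 of the 49 abundant miRNAs had a smaller one (median 29.3%). Of the 11 miRNAs on the reference list, bta-miR-191 took the fourth place. Steadier were bta-let-7a-5p (CV 13.5%), bta-miR-423-5p (14.5%) and bta-miR-484 (19.2%), and bta-miR-24-3p (38.0%), bta-miR-320a (40.97%) and bta-miR-25 (45.8%) followed. The rarer bta-miR-93 (67.2%), bta-miR-16b (70.1%), bta-miR-103 (71.9%) and bta-miR-425-5p (92.0%) varied most. Counting alone gives CVs of 15.9% for bta-miR-93, 11.2% for bta-miR-103 and 15.4% for bta-miR-425-5p. For bta-miR-16b, with no count in replacement cow 3, this value is not defined. With all miRNA counts as the total the CV of bta-miR-191 was 62.7%, and in RPM it was 74.6%. These values are given for bta-miR-191 alone, so they do not rank it among the references. All known miRNAs together ranged from 4921 to 13233 RPM.

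**Figure D5:**
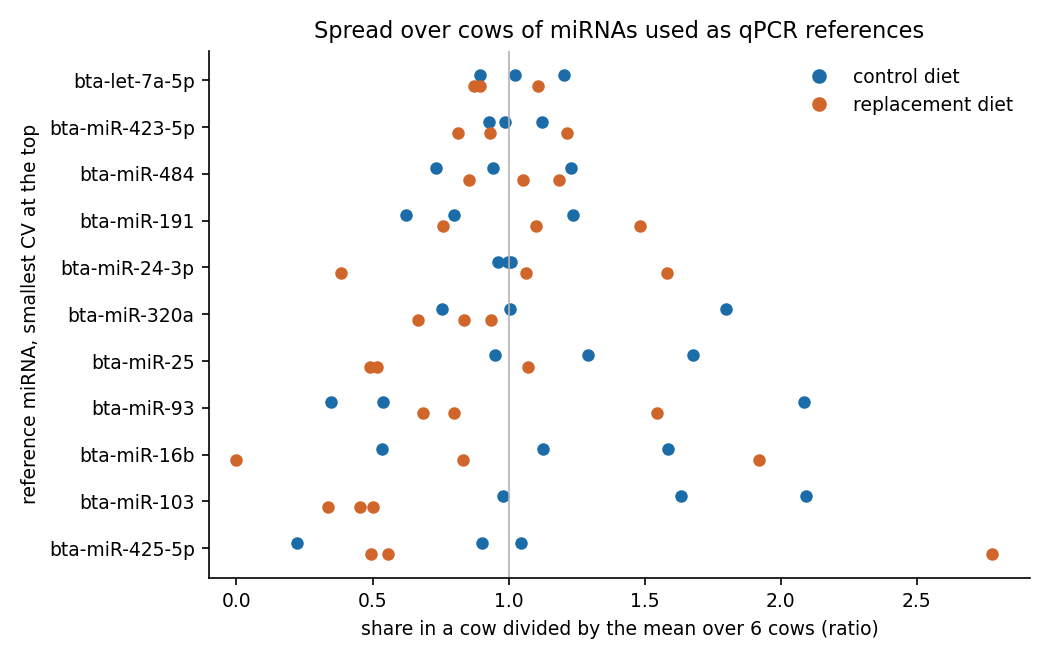
For each of 11 miRNAs used as references in quantitative PCR, the share in each cow is plotted as a ratio to its mean over the 6 cows, with the smallest CV at the top (blue control diet, orange replacement diet). The points of bta-let-7a-5p, with a CV of 13.5%, lie closest to 1, those of bta-miR-191, with 33.0%, spread wider, and replacement cow 2 stands far to the right for bta-miR-425-5p.

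The diets were compared next. The mean share of bta-miR-191 on the control diet was 12.5% ± 4.48 (SD, n = 3), and on the replacement diet it was 15.7% ± 5.12 (SD, n = 3). The difference of 3.21 percentage points was smaller than the SD in either diet (exact permutation test, two-sided, p = 0.6, adjusted p = 1 over the 4 members, 0.1 being the smallest p of this design). The difference was 0.604 points without replacement cow 1, 1.35 without control cow 3, 5.70 without control cow 2 and 5.72 without replacement cow 3. For bta-miR-425-5p the means were 0.0696% ± 0.0424 (SD, n = 3) and 0.123% ± 0.125 (SD, n = 3; exact permutation p = 0.8). In no member were the diets apart, as against 4.71% of all 276 known miRNAs, whose shares did not overlap between the diets.

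In edgeR's quasi-likelihood test on the counts of all rows, the log2 fold change, replacement over control diet, was 0.39 for bta-miR-191 (standard error 0.56, Benjamini-Hochberg adjusted p = 0.986), 0.76 for bta-miR-425-5p (standard error 0.96, adjusted p = 0.986) and -0.18 for bta-miR-425-3p (standard error 1.84, adjusted p = 0.986). The sign turned to -0.17 for bta-miR-191 without replacement cow 1 and to -0.42 for bta-miR-425-5p without replacement cow 2. The counts of bta-miR-191b were too low for the test. Of the 3 members tested, 0 passed an adjusted p of 0.05, and of all 227 miRNAs tested 0.0% passed, with 8 (3.52%) at an unadjusted p under 0.05, where no member was found. With DESeq2, 7 of 344 miRNAs passed (2.03%), and with limma 0 of 227, and no member was among them. The reference list behaved alike, with 0 of 11 called by edgeR and by DESeq2 and a median log2 fold change of 0.08, against 0.03 over all miRNAs tested. Its bta-miR-103 was the 1 of the 11 whose diets did not overlap, as was so for 4.71% of all 276 known miRNAs. It was picked out after the values were seen. Its share was 0.13% to 0.278% on the control diet and 0.0445% to 0.0667% on the replacement diet (log2 fold change -1.70, standard error 0.61, edgeR adjusted p = 0.986).

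Markers of cell types that could contribute vesicles were read beside bta-miR-191. The 7 red blood cell miRNAs in the table, among them bta-miR-451 and bta-miR-486, together held 7.21% to 20.1% on the control diet and 6.52% to 10.9% on the replacement diet. Their summed share ran in the reverse order of bta-miR-191 over the 6 cows (Spearman's rho -1, a description). It was 20.1% in control cow 3, 10.93% in replacement cow 3 and 10.92% in control cow 1. Then came 9.51% in replacement cow 2, 7.21% in control cow 2 and 6.52% in replacement cow 1. The values of replacement cow 3 and control cow 1 were nearly equal, so their order carries little weight. The order of this sum was thus the reverse of that of the known counts as well. No single miRNA of the list followed it in full. The share of bta-miR-451 was lowest in replacement cow 1 (0.709%), but that of bta-miR-486 in control cow 2 (3.72%). Both bta-miR-16a and bta-miR-16b were at 0 in at least 1 cow. With the red blood cell miRNAs left out of the total, bta-miR-191 was still lowest in control cow 3 (10.99%) and highest in replacement cow 1 (22.4%). Its r with the remaining known counts was 0.96. The 8 leukocyte miRNAs, with bta-miR-150 as the largest, held 2.19% to 2.88% and 1.84% to 3.07%, and 7 of the 8 had counts in every cow. The exception was bta-miR-142-3p, at 0 in 5 cows. The 10 mammary epithelium miRNAs in the table held 0.856% to 1.16% and 0.443% to 0.86%, mostly from bta-miR-148a, and 6 of them, including bta-miR-200b and bta-miR-141, were at 0 in at least 1 cow. For diet, edgeR tested 7 red blood cell, 7 leukocyte and 6 mammary epithelium miRNAs and called 0 of them, as of all 227 tested (0.0%), and DESeq2 called 0, against 2.03% of all. The median log2 fold changes were -0.64, 0.13 and -0.55, against 0.03 over all miRNAs tested. The part of these cell types in the level of bta-miR-191 was not tested.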

How the data were processed

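Small RNA libraries of milk EVs from 6 cows were analysed. According to the methods and the submitters' processing notes, the authors trimmed reads with cutadapt 1.14, aligned them to ARS-UCD1.2 (Bowtie is named), removed other RNA with Rfam, and named miRNAs with miRBase and miRDeep2. The authors deposited whole-number counts per mature miRNA, without normalization, and the same values as RPM (named TPM, with no length term). A deposited table of their own diet comparison (fold changes, p-values) was not used. The counter is not given in the sources used here.

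Members and lists were chosen with earlier results of these data known. Shares of known counts, 95% Wilson or exact intervals and exact permutation tests (1 relation across cows, 4 diet differences) were computed in Python 3.11.15 with scipy 1.17.1. Diets were compared with edgeR 4.0.16 (TMM, default filter, quasi-likelihood), with DESeq2 1.42.0 and limma 3.58.1 (log2(CPM + 1)) as alternatives. The standard errors given for edgeR were derived from the log2 fold change and the F statistic, and are approximate. All 3 tools were run on simulated counts with 200 changed miRNAs as a check of the code, which does not show their power in these cows. Arms were folded with RNAduplex. Named miRNAs were the members, close sequences, neighbours in rank, the 5 most and 3 least alike, the reference list and marker lists. After their values were seen, bta-miR-142-3p, bta-miR-200b and bta-miR-141 were singled out as examples at 0, and bta-miR-103 for its diet ranges. Sequences came from the count table, and 3 precursor genes matched RefSeq. Each library came from a separate cow, so n counts cows.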

Additional observations from a re-analysis of the deposited data

Results flagged for a closer look

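Single cows far from the rest were looked for in 10 values (the shares of the 4 members, 2 ratios and 4 lists), and 3 values held one, where chance gives about 1 in 20. For bta-miR-425-5p, replacement cow 2 held 0.267% of the known counts and the next highest cow held 0.101%. For bta-miR-191b, control cow 2 held 0.00992% and the other cows had no count, a pattern that meets the criterion whatever the count. For the red blood cell list, control cow 3 held 20.1% and the next highest cow 10.9%.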

How the results depend on the processing

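The alternatives for the relation of bta-miR-191 with the counts of the other known miRNAs were chosen after seeing the data. The mean share of bta-miR-191 was 4.31% with known and predicted counts as the total and 0.131% of the reads behind the RPM, and 12.7% to 15.2% with a cow left out. Its CV was 62.7% and 74.6% with these totals, 28.8% without the red blood cell list, and 28.3% to 37.2% with a cow left out. The relation with the other known counts gave r of 0.339 with known and predicted counts, and 0.92 to 0.978 with a cow left out. The diet count of 0 became 7 with DESeq2, 15 without a filter, and 0 to 1 with a cow left out (1 without control cow 2 and 1 without control cow 3). With a cow left out, the log2 fold change ran from -0.17 to 1.02 for bta-miR-191, from -0.42 to 1.25 for bta-miR-425-5p and from -6.44 to 0.37 for bta-miR-425-3p, whose lowest value, without replacement cow 1, compares with a group at 0 counts and is no bound. Scaling by library size alone moved the median of all miRNAs from 0.03 to 0.63, against which the values for bta-miR-191 (0.95) and bta-miR-425-5p (1.37) stand, and turned bta-miR-425-3p to 0.30. The causes were not tested.

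The cow numbers share no stated link. The deviations of same-numbered cows correlated at -0.114, -0.178 and 0.173, and not every cow correlated best with its own number. With the number as a block, edgeR gave 0.35 for bta-miR-191, 0.65 for bta-miR-425-5p and -3.16 for bta-miR-425-3p, with adjusted p = 0.982 and 0 miRNAs called, and the difference in share of 3.21 points had an exact permutation p of 0.75 over 3 pairs, whose smallest is 0.25. The other alternatives kept direction and, where a test was run, side of the threshold. Low counts limit what can be said of bta-miR-425-3p and bta-miR-191b, with 72 and 16 over all cows. Their zeros did not follow the known counts. For bta-miR-425-3p, replacement cow 2 had 0 at 96254 known counts and control cow 3 had 6 at 61156.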

Other observations

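Among the 49 abundant miRNAs, families with a common seed were not alike in how they followed bta-miR-191 over the 6 cows. The 7 let-7 members ran from r of 0.923 to -0.961 and the 4 miR-30 members from 0.944 to -0.882. The pair bta-miR-26a and bta-miR-26b lay between 0.664 and 0.0296, bta-miR-10a and bta-miR-10b between 0.0945 and -0.745, and bta-miR-92a and bta-miR-25 between -0.54 and -0.855. The 3 miR-99 and miR-100 members lay between -0.422 and -0.863, bta-miR-125a and bta-miR-125b between -0.782 and -0.794, and bta-miR-192 and bta-miR-215 between -0.628 and -0.742. GC content had a Spearman's rho of -0.146 with r over the 48 miRNAs. These values are descriptions over shares with a common total, and the difference between families was not tested.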
